A study of Rattus norvegicus with 56 samples.

Results

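Vcam1, Icam1, Sele and Selp encode vascular cell adhesion molecule 1, intercellular adhesion molecule 1, E-selectin and P-selectin, the surface proteins with which activated endothelium takes hold of passing leukocytes. In inflammation the selectins first slow leukocytes by binding sugar-decorated ligands, and VCAM-1 and ICAM-1 then hold them through integrins. Transcription of these genes in endothelial cells is classically switched on by tumor necrosis factor, interleukin 1 and bacterial endotoxin through NF-kB, and P-selectin is also stored ready-made in endothelial and platelet granules. In the brain, where resting vessels carry little of these proteins, their induction marks vessels that respond to inflammation in the periphery.

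The genes were followed in the medial hypothalamus of the rat, 1 array per animal, on 56 Affymetrix Rat Gene 2.1 ST arrays. A member was represented by its transcript cluster, the array's unit of probes for 1 gene, provided that the cluster carried this gene symbol alone. By this rule 3 of the 4 members were measured, each through 1 cluster (17750841 for Vcam1, 17842370 for Icam1 and 17681500 for Selp) out of 36685 clusters on the array, and 14557 genes in all had a cluster of their own. Sele had 0 clusters, of its own or shared, and has no value here. The members were chosen by the LPS response of these same arrays, which was known beforehand, so their levels after LPS and after NaCl are given as a description and support nothing by themselves.

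All rats were 3-month-old male Wistar rats. CNT rats (n = 5) underwent no procedure. SHAM and VAGX rats had a sham operation or a subdiaphragmatic vagotomy, which cuts the branches of the vagus nerve below the diaphragm, followed by 30 days of recovery. NaCl, CEL, SC560 and INDOM rats were injected s.c. for 10 days with NaCl, celecoxib (an inhibitor selective for cyclooxygenase 2), SC-560 (selective for cyclooxygenase 1) or indometacin (inhibiting both), at doses not given in the sources used here. Each of these 6 pretreatments ended in a single i.p. injection of 100 µl, either with 10 µg of lipopolysaccharide (LPS, bacterial endotoxin; groups ending in -I) or of saline alone (groups ending in -III), and tissue was taken 120 min later. The LPS groups were SHAM-I (n = 4), VAGX-I (n = 5), NaCl-I (n = 4), CEL-I (n = 5), SC560-I (n = 5) and INDOM-I (n = 3), 26 arrays together. The NaCl groups were SHAM-III (n = 4), VAGX-III (n = 3), NaCl-III (n = 3), CEL-III (n = 5), SC560-III (n = 5) and INDOM-III (n = 5), 25 arrays together. The array numbers run through the groups from 1 to 40 and start again with CNT at 41, and arrays 1 to 40 and 41 to 56 were treated as separate sets, a division that no label names. The CEL and SC560 groups lie wholly in the first set and INDOM wholly in the second, and VAGX-III lies in the first with 1 of the 4 SHAM-III arrays. The tissue holds neurons, glia, vessels and the blood in them, so that fewer endothelial cells and less RNA per cell cannot be told apart.

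The stretches before the start sites of Vcam1 and Icam1 are shown because both genes are textbook NF-kB targets and are the 2 of the 3 measured members that matched in the promoter table, Selp being unmatched. Both are RefSeq sequences of build GRCr8, the 250 bases upstream of the start, read 5′ to 3′ on the gene's strand. Vcam1 lies on the minus strand (chr2:206742784-206743033) and Icam1 on the plus strand (chr8:27829595-27829844). Capitals mark every match, on either strand, to GGNNNTTCC (the core of an NF-kB element), TATAAA (a core promoter box) and TTCNNNGAA (the core of a STAT element).
Vcam1: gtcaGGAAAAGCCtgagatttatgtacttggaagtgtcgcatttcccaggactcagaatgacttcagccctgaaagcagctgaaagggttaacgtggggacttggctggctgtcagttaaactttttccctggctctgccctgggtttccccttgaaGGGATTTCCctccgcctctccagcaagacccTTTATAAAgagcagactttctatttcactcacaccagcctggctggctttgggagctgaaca
Icam1: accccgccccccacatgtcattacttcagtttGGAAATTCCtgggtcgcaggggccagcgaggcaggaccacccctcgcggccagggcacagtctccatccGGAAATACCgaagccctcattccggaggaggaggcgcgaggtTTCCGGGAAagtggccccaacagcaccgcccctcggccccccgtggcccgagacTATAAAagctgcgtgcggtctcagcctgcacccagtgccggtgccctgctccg

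In Vcam1 the letters GGGATTTCC began 93 bases before the start on the gene's strand, and GGAAAAGCC, a match on the other strand, began 246 bases before it. In Icam1 GGAAATTCC, which reads as a match on both strands, began 218 bases before the start, and GGAAATACC, a match on the other strand, 149 bases before it. TATAAA began 60 bases before the start of Vcam1, where it overlaps a match on the other strand, and 53 bases before that of Icam1. TTCCGGGAA, 107 bases upstream in Icam1, matched TTCNNNGAA on both strands, and Vcam1 had no such match in this window. Of 33469 rat promoters of the same length, 15.4% held GGNNNTTCC, 12.9% TATAAA and 7.67% TTCNNNGAA on either strand. The letters describe these windows and do not show that a factor binds there.

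Before the values, 8 arrays must be set apart. The mean of 9 measured chemokine genes, expressed on the log2 scale as the distance from the average of the 56 arrays, lay between 0.56 and 1.90 in 20 LPS arrays and between -1.11 and -0.54 in 24 NaCl arrays. In 6 LPS arrays (6 of SHAM-I, 11 and 12 of VAGX-I, 21 of CEL-I, 49 and 50 of INDOM-I) it lay between -1.12 and -0.47. In 1 NaCl array (36 of SC560-III) it was 2.20, and in 1 CNT array (4) it was 1.50. The labels were kept for all of them, and the members' values are given with and without these 8 arrays. Group differences without them carry no test, because the arrays were picked by an inflammatory readout. Array 46 of VAGX-I stood apart in another way, as its mean over markers of hypothalamic neurons was -2.87, against 0.14 for the median LPS array, and over choroid plexus markers 3.65. Over all clusters the log2 medians of the arrays lay between 4.04 and 4.24 and the correlations between pairs of arrays lay between 0.93 and 0.98.

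Vcam1, the ligand of integrin alpha 4 beta 1, was high after LPS and low after NaCl in most rats. In SHAM rats its log2 intensity was 7.71, 6.46, 7.66 and 7.46 after LPS and 6.76, 6.12, 6.35 and 6.53 after NaCl. In VAGX rats it was 7.85, 8.17, 6.46, 7.12 and 8.06 after LPS and 6.50, 6.14 and 6.08 after NaCl. The arrays that overlapped with NaCl levels in these operated rats were the SHAM-I array 6 and the VAGX-I array 11. In saline-pretreated rats the values were 7.82, 7.29, 7.39 and 7.49 after LPS and 6.39, 6.68 and 5.94 after NaCl. In CEL rats they were 7.21, 7.69, 7.85, 7.88 and 8.07 after LPS and 6.34, 6.53, 6.56, 6.27 and 6.28 after NaCl. Neither of these pretreatments showed any overlap. In SC560 rats the values were 7.50, 7.98, 7.41, 7.81 and 8.02 after LPS and 8.12, 6.28, 6.64, 6.29 and 6.75 after NaCl. In INDOM rats they were 6.17, 6.36 and 7.52 after LPS and 6.10, 6.30, 6.33, 6.01 and 6.40 after NaCl. The NaCl value of 8.12 (array 36) exceeded every SC560-I array, whereas 2 of the 3 INDOM-I arrays (49 and 50) stayed within the NaCl range. CNT rats had 6.54, 6.27, 6.52, 8.04 and 6.02, with array 4 at the level of LPS rats.

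Icam1, the ligand of the leukocyte integrins alpha L beta 2 and alpha M beta 2, was more scattered. In SHAM rats its log2 intensity was 6.08, 4.68, 5.44 and 6.45 after LPS and 5.15, 5.41, 5.13 and 4.68 after NaCl. In VAGX rats it was 6.64, 6.09, 5.02, 5.80 and 6.64 after LPS and 4.89, 4.11 and 4.79 after NaCl. The groups overlapped in SHAM through array 6 alone and were separate in VAGX. In saline-pretreated rats the values were 6.43, 5.21, 5.67 and 5.99 after LPS and 4.49, 5.10 and 5.58 after NaCl. In CEL rats they were 6.21, 6.52, 6.46, 5.60 and 6.35 after LPS and 4.74, 4.47, 4.51, 4.62 and 5.00 after NaCl. The CEL groups were separated by a wide gap, and the NaCl pretreatment had 1 LPS array (17) below its highest NaCl array. In SC560 rats the values were 5.61, 5.91, 5.08, 6.76 and 5.55 after LPS and 6.18, 4.90, 4.69, 4.97 and 5.23 after NaCl. In INDOM rats they were 5.41, 5.04 and 6.48 after LPS and 4.53, 5.06, 4.41, 5.17 and 4.92 after NaCl. Both pairs of groups overlapped. CNT rats had 4.77, 5.02, 4.69, 6.19 and 4.95, again with array 4 on top.

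Selp, whose product tethers rolling leukocytes through PSGL-1, was dim: outside array 36 no NaCl array exceeded 3.29, below the median of every array, and no detection call was part of the values. In SHAM rats its log2 intensity was 4.48, 2.80, 5.00 and 4.75 after LPS and 2.61, 2.79, 2.74 and 2.97 after NaCl. In VAGX rats it was 3.36, 5.45, 3.23, 3.46 and 6.08 after LPS and 2.84, 3.27 and 2.80 after NaCl. In VAGX-I the values split widely, and the highest of all 56 arrays was that of array 46. In saline-pretreated rats the values were 2.83, 3.34, 4.45 and 4.17 after LPS and 3.29, 3.22 and 3.28 after NaCl. In CEL rats they were 3.44, 4.53, 3.71, 5.03 and 5.38 after LPS and 2.36, 2.80, 2.72, 2.56 and 3.03 after NaCl. Array 16 of NaCl-I, which had the highest Vcam1 and Icam1 of its group, had the lowest Selp, while the CEL groups did not overlap. In SC560 rats the values were 4.75, 4.42, 3.95, 4.23 and 5.60 after LPS and 5.59, 2.85, 2.63, 2.90 and 2.90 after NaCl. In INDOM rats they were 3.05, 2.94 and 4.61 after LPS and 2.85, 2.78, 2.93, 2.68 and 2.99 after NaCl. Array 36 of SC560-III and array 51 of INDOM-I stood alone in their groups. CNT rats had 2.60, 2.75, 3.05, 5.23 and 3.10.

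**Figure D1:**
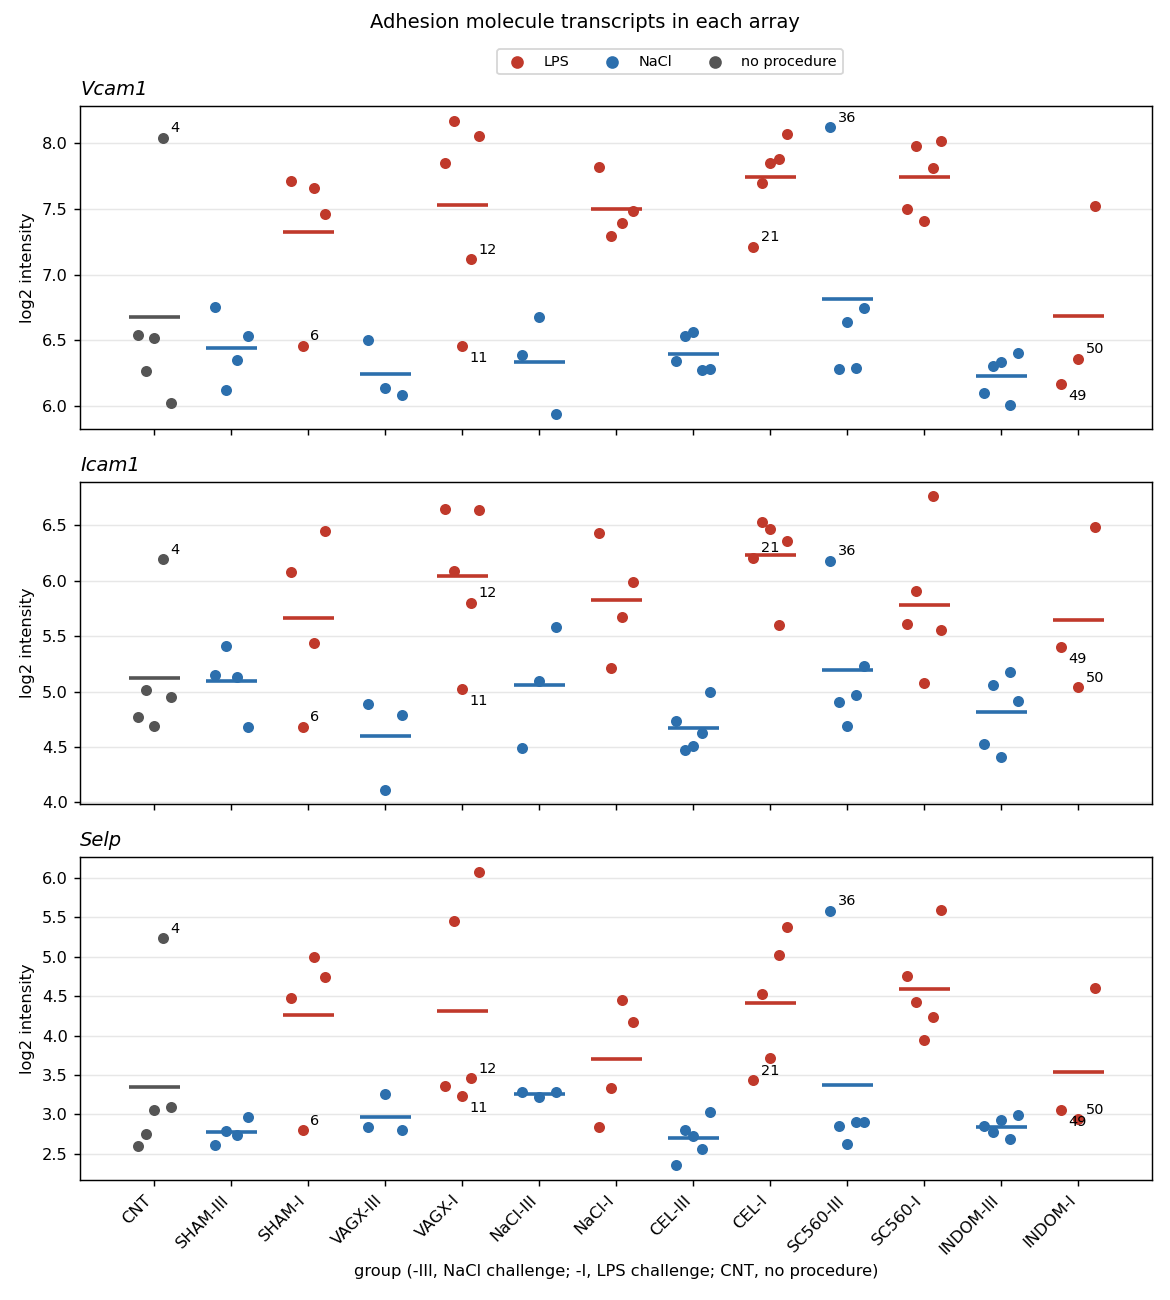
Log2 intensity of Vcam1, Icam1 and Selp (vertical axes) in each of the 56 arrays, by group, with red points for LPS, blue for NaCl and grey for CNT; horizontal bars are group means, and the 8 arrays set apart by their chemokines carry their array number. Arrays 6, 11, 49 and 50 sit with the NaCl arrays for Vcam1, and arrays 36 and 4 sit with the LPS arrays for all 3 genes.

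Over the 26 LPS and 25 NaCl arrays, with the 6 pretreatments as additive terms, Vcam1 was 1.02 higher after LPS on the log2 scale (SE 0.13, 95% interval 0.76 to 1.27), a 2.03-fold difference. Icam1 was higher by 0.97 (SE 0.15, 0.67 to 1.27), or 1.96-fold. Selp was higher by 1.19 (SE 0.21, 0.76 to 1.62), or 2.29-fold. All 3 measured members were among the 127 clusters higher after LPS at an adjusted p under 0.05 in limma, which are 0.346% of the clusters tested; the members were chosen for this response, so nothing is read from that count. The groups were not separate: 25 of 26 LPS arrays exceeded the NaCl median for Vcam1 and for Icam1, and 24 of 26 for Selp. Because of array 36 only 1 LPS array exceeded every NaCl array for Vcam1, 10 for Icam1 and 2 for Selp, and setting that array aside these numbers became 22, 18 and 21. Within arrays 1 to 40 alone the differences were 1.06, 1.03 and 1.20 for Vcam1, Icam1 and Selp, and within arrays 41 to 56 alone 0.79, 0.89 and 1.01. Without the 8 arrays the difference was 1.35 for Vcam1 (2.56-fold), 1.21 for Icam1 (2.32-fold) and 1.65 for Selp (3.15-fold). All 20 LPS arrays then exceeded all 24 NaCl arrays for Vcam1, 16 for Icam1 and 19 for Selp. The 8 arrays were picked by chemokines. Over the LPS arrays, group means removed, r with the chemokine mean was 0.87 for Vcam1, 0.87 for Selp and 0.50 for Icam1. A wider gap is therefore built into the choice, and nothing is read from these counts.

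Each pretreatment had a positive LPS difference for each measured member. For Vcam1 it was 0.88 in SHAM (SE 0.40), 1.29 in VAGX (SE 0.41), 1.16 in NaCl (SE 0.31), 1.34 in CEL (SE 0.26), 0.93 in SC560 (SE 0.26) and 0.45 in INDOM (SE 0.30). For Icam1 it was 0.57 in SHAM (SE 0.39), 1.44 in VAGX (SE 0.40), 0.77 in NaCl (SE 0.36), 1.56 in CEL (SE 0.30), 0.59 in SC560 (SE 0.30) and 0.82 in INDOM (SE 0.35). For Selp it was 1.48 in SHAM (SE 0.62), 1.35 in VAGX (SE 0.64), 0.43 in NaCl (SE 0.53), 1.72 in CEL (SE 0.44), 1.22 in SC560 (SE 0.44) and 0.69 in INDOM (SE 0.50). Celecoxib-treated rats thus had the largest point estimate for all 3 genes, and indometacin-treated rats the smallest for Vcam1. At an adjusted p under 0.05 in limma, 0 of the 3 members were called in any single pretreatment, where the share of clusters called higher was 0% in SHAM, NaCl, CEL and SC560 and 0.00273% in VAGX and INDOM. At an unadjusted p under 0.05 limma gave 3 of 3 members in VAGX and CEL, 2 of 3 in SHAM, NaCl and SC560 and 1 of 3 in INDOM, where the share of all clusters at that level, in either direction, was 7.02% in VAGX, 5.57% in CEL, 3.42% in SHAM, 4.05% in NaCl, 3.62% in SC560 and 5.42% in INDOM. In CEL every LPS array exceeded every NaCl array for 3 of 3 members, against 0.474% of all clusters. The same held for 1 of 3 members in VAGX (Icam1; 1.98% of clusters) and 1 of 3 in NaCl (Vcam1; 2.42%), and for 0 of 3 in SHAM (1.11%), SC560 (0.39%) and INDOM (1.07%).

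Leaving out the 8 arrays raised the difference of each member in each of the 5 pretreatments they belonged to, a rise that the way they were picked favours. Vcam1 then differed by 1.17 in SHAM, 1.78 in VAGX, 1.16 in NaCl, 1.47 in CEL, 1.25 in SC560 and 1.29 in INDOM. Icam1 differed by 0.90, 1.86, 0.77, 1.57, 0.83 and 1.66 in the same order, and Selp by 1.96, 1.99, 0.43, 1.97, 1.77 and 1.76. The INDOM values then rested on 1 LPS array (51), and the NaCl values did not change, as no array of that pretreatment was set apart. Single arrays moved several of these uncalled differences by more than 1.5 times. The Selp difference in NaCl, 0.43, was 0.72 without array 16, 0.18 without array 18 and 0.28 without array 47. The Icam1 difference was 0.90 without array 6 and 0.31 without array 42 in SHAM, 0.48 without array 19 in NaCl and 0.34 without array 34 in SC560. In INDOM, leaving out array 51 gave 0.034 for Vcam1, 0.40 for Icam1 and 0.15 for Selp, and leaving out array 49 gave 0.71 for Vcam1. Without array 46, the Selp difference in VAGX was 0.91.

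**Figure D2:**
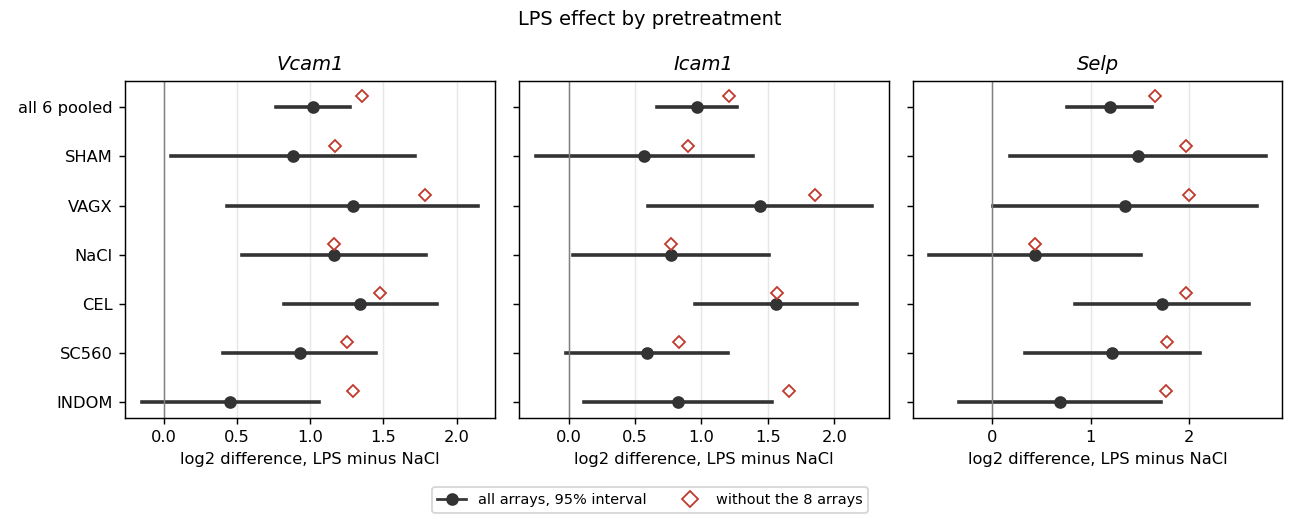
Difference between LPS and NaCl arrays in log2 intensity (horizontal axes) for the 6 pretreatments pooled and for each of them; black points with lines are limma estimates with 95% intervals from all arrays, and open red diamonds are the estimates without the 8 arrays set apart. The pooled difference is 1.02 for Vcam1, 0.97 for Icam1 and 1.19 for Selp, and the INDOM estimate of Vcam1 moves from 0.45 to 1.29.

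Whether vagotomy or the cyclooxygenase inhibitors altered this response was asked by the difference of LPS effects. For vagotomy against sham operation it was 0.41 for Vcam1 (SE 0.57, 95% interval -0.79 to 1.60), 0.87 for Icam1 (SE 0.56, -0.30 to 2.05) and -0.13 for Selp (SE 0.89, -2.00 to 1.74), with limma adjusted p of 0.98, 0.96 and 1.00. For celecoxib against saline pretreatment it was 0.18 for Vcam1 (-0.64 to 1.00), 0.79 for Icam1 (-0.17 to 1.75) and 1.29 for Selp (-0.10 to 2.68). For SC-560 it was -0.23 for Vcam1 (-1.05 to 0.59), -0.18 for Icam1 (-1.14 to 0.78) and 0.78 for Selp (-0.61 to 2.18). For indometacin it was -0.71 for Vcam1 (-1.58 to 0.17), 0.05 for Icam1 (-0.97 to 1.08) and 0.25 for Selp (-1.23 to 1.74). None of these 12 differences passed in limma (adjusted p of at least 0.96, and 0 with an unadjusted p under 0.05, against 5.37% of all clusters for VAGX, 4.28% for CEL, 3.64% for SC560 and 4.42% for INDOM), and all 12 intervals held 0. A p that misses the threshold does not show that the responses were alike. Across all 6 pretreatments at once, the F statistic of the interaction was 1.10 for Vcam1, 1.60 for Icam1 and 0.82 for Selp (limma adjusted p = 1.00 for each). By this test 0 of 36685 clusters passed, and 1577 had an unadjusted p under 0.05. Without the 8 arrays the differences for Vcam1, Icam1 and Selp were 0.61, 0.96 and 0.03 for VAGX minus SHAM and 0.31, 0.80 and 1.53 for CEL minus NaCl. They were 0.09, 0.07 and 1.34 for SC560 minus NaCl and, from 1 INDOM-I array, 0.13, 0.89 and 1.32 for INDOM minus NaCl. Selp was thus further above the saline-pretreated response with each inhibitor than over all arrays, and no test was made. With the array set as a term, the Selp difference of VAGX minus SHAM was -0.62.

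Pretreatments were also compared at the same injection, in 24 comparisons of a member, of which 0 passed in limma and 1 had an unadjusted p under 0.05 (INDOM-I against NaCl-I, for Vcam1). The share of all clusters at that level was 4.14% and 7.97% for VAGX against SHAM under LPS and NaCl, 4.61% and 4.62% for CEL, 4.19% and 3.96% for SC560 and 4.98% and 5.51% for INDOM against NaCl pretreatment. Among LPS rats VAGX differed from SHAM by 0.21 for Vcam1 (SE 0.38), 0.38 for Icam1 (SE 0.37) and 0.06 for Selp (SE 0.59), and among NaCl rats by -0.20 (SE 0.43), -0.50 (SE 0.42) and 0.19 (SE 0.67). The NaCl rats of these operations are split unevenly over the array sets, and with the set as a term the differences among them were -0.27, -0.22 and 0.71. The furthest from 0 relative to its error was Vcam1 in INDOM-I against NaCl-I, at -0.81 (SE 0.31, 95% interval -1.44 to -0.18), which did not pass (limma adjusted p = 0.89). Without arrays 49 and 50, which left 1 INDOM-I array, this difference was 0.03, and that of Icam1 and Selp turned from -0.18 and -0.16 to 0.66 and 0.91. Selp was 0.89 higher in SC560-I than in NaCl-I (SE 0.46, -0.05 to 1.83) and 0.72 higher in CEL-I (SE 0.46, -0.22 to 1.66), with limma adjusted p of 1.00 in both. In NaCl-challenged rats Selp was 0.57 lower in CEL-III than in NaCl-III (a difference of -0.57, SE 0.50). For INDOM-III the difference was -0.42 (SE 0.50). All 5 arrays of each lay below all 3 NaCl-III arrays, and 4 of the 5 SC560-III arrays did so. The 3 NaCl-III values lay between 3.22 and 3.29. As the share of all clusters separated in this way was not computed, nothing is read from these counts. Neither difference passed (limma adjusted p = 1.00 for CEL-III and 0.96 for INDOM-III). In NaCl-challenged rats as a whole, the mean of the 6 groups differed from CNT by -0.27 for Vcam1 (SE 0.24), -0.22 for Icam1 (SE 0.26) and -0.36 for Selp (SE 0.39), with limma adjusted p of 1.00 for each. Without arrays 4 and 36 these were 0.02, 0.01 and 0.02.

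By falling mean, Vcam1 ran from SC560-I (7.74 ± 0.28, SD, n = 5), CEL-I (7.74 ± 0.32, n = 5), VAGX-I (7.53 ± 0.73, n = 5), NaCl-I (7.50 ± 0.23, n = 4) and SHAM-I (7.32 ± 0.59, n = 4) to SC560-III (6.82 ± 0.76, n = 5), with INDOM-I (6.68 ± 0.73, n = 3) next and INDOM-III last (6.23 ± 0.17, n = 5). Icam1 ran from CEL-I (6.23 ± 0.37) and VAGX-I (6.04 ± 0.67) down to VAGX-III (4.60 ± 0.42), and all 6 LPS means lay above all NaCl and CNT means. Selp ran from SC560-I (4.59 ± 0.63) down to CEL-III (2.70 ± 0.25), again with the 6 LPS means on top. In each gene's order, all 12 pairs of neighbouring groups overlapped in range, so that no step between neighbours exceeded their spread.

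The members were then compared array by array, with group means removed so that differences between groups played no part. Differences among rats of 1 group in their response to LPS remain in these values. Over all 26 LPS arrays r was 0.71 for Vcam1 and Icam1, 0.71 for Vcam1 and Selp and 0.35 for Icam1 and Selp, and without arrays 6 and 11, the farthest from the median of Vcam1, the r values of Vcam1 were 0.57 and 0.63. The planned permutation test within groups over the 26 gave Benjamini-Hochberg adjusted p of 0.0039, 0.0039 and 0.205 for these pairs. The LPS arrays fell into separate clusters by their chemokines (20 arrays and the 6 set apart). That split alone can give such values, so they are a description. Permutation tests over the 20 were added after seeing the data. Vcam1 and Icam1 had a Pearson r of 0.30 (permutation p = 0.34) and a Spearman rho of 0.17 (p = 0.56, permutation). Vcam1 and Selp had 0.28 (permutation p = 0.28) and 0.28 (p = 0.30), and Icam1 and Selp -0.24 (permutation p = 0.32) and -0.29 (p = 0.26). Over all 25 NaCl arrays r was 0.40 for Vcam1 and Icam1, 0.78 for Vcam1 and Selp and 0.53 for Icam1 and Selp. Here the planned test gave Benjamini-Hochberg adjusted p of 0.209, 0.205 and 0.205 (permutation within groups). Without array 36, over the 24 NaCl arrays, the r values were -0.25, -0.06 and -0.24 for the same pairs, with permutation p of 0.40, 0.78 and 0.26. Over the 20 LPS and 24 NaCl arrays none of the 6 relations passed (Benjamini-Hochberg adjusted p of at least 0.48 over the 6, permutation within groups). These arrays were kept by their chemokines, which narrows the range of genes that vary with them. The result therefore does not show that the members vary independently. Without the 2 arrays farthest from the median of the first gene, r over the remaining LPS arrays was 0.01, 0.40 and -0.34 for the same pairs.

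Over all 26 LPS arrays, group means removed, the genes most like Vcam1 among 14556 others were Birc3 (r = 0.89), an inhibitor of apoptosis, the interferon-induced Ifit3 (0.88), Ier3 (0.88), an early response gene, the chemokine Cxcl10 (0.86) and Slfn2 (0.81). Over the 20 arrays alone these r values became 0.63, 0.13, 0.61, 0.12 and 0.46. Cxcl10 belongs to the chemokine list by which arrays were set apart. Leaving those arrays out narrows the range of genes that vary with that list, so nothing is read from the lower values. Most like Icam1 were Depp1 (r = 0.84), Apold1 (0.82), an early response gene of endothelial cells, Ier3 (0.82), the neutrophil chemokine Cxcl1 (0.78) and the transcriptional repressor Bcl6b (0.76). Over the 20 arrays they had 0.77, 0.84, 0.64, 0.58 and 0.80. Most like Selp were the chemokine Cxcl16 (r = 0.88), the oncostatin M receptor subunit Osmr (0.88), the interleukin 6 receptor Il6r (0.84), the feedback inhibitor of EGF receptors Errfi1 (0.84) and the chemokine Cxcl9 (0.84). Over the 20 arrays they had 0.81, 0.78, 0.76, 0.75 and 0.65. The arrays share their animals' whole response, and these r values are a description without a test. The 3 lists shared 1 gene, Ier3, between Vcam1 and Icam1.

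**Figure D3:**
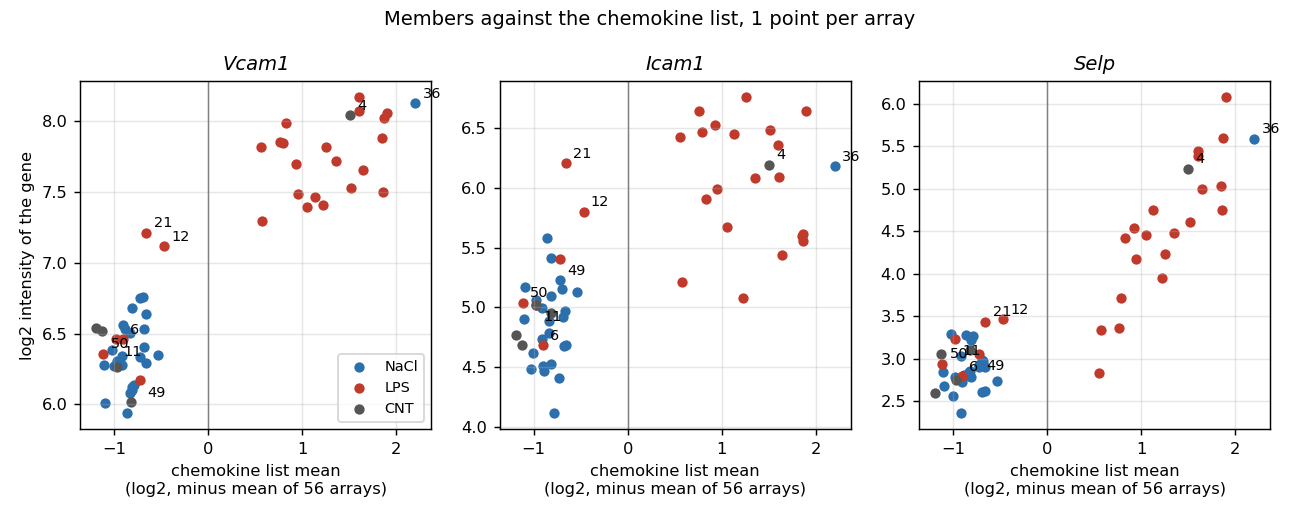
Log2 intensity of each member (vertical axes) against the mean of the 9 chemokine genes (horizontal axes, log2 distance from the mean of the 56 arrays), 1 point per array, red for LPS, blue for NaCl and grey for CNT; numbers name the 8 arrays on the other side of 0 from their group. Arrays 12 and 21 have Vcam1 of 7.12 and 7.21 and Icam1 of 5.80 and 6.21 with chemokine means below 0.

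Chemokines, which vessels and the cells around them release to draw leukocytes, had the largest median difference of the 7 lists around the members. This list and those below were chosen with earlier results of these data known, so their values and counts are a description. Of 11 listed genes 9 were measured, and 5 rose and 0 fell after LPS by limma at an adjusted p under 0.05. The median difference was 1.25 over the list against -0.01 over all genes. For this list and those below, 0.346% of all 36685 clusters were called higher and 18 clusters lower. At an unadjusted p under 0.05 in limma the share was 4.9%. Cxcl11 was 14.3-fold higher (log2 6.82 ± 2.52, n = 26, against 2.94 ± 1.44, n = 25), Cxcl10 7.75-fold, Cxcl9 5.78-fold and Cxcl1 2.39-fold, and the fifth was the monocyte attractant Ccl2 (3.55-fold). Cxcl9, Cxcl10 and Cxcl11 attract T cells and Cxcl1 attracts neutrophils. Without the 8 arrays, which were picked on this list, the median was 1.73.

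Among the inducers, receptors and NF-kB genes that lie upstream of the members, 19 of 24 were measured, 4 rose and 0 fell, and the median difference was 0.25 (0.31 without the 8 arrays). Nfkbia, the inhibitor that NF-kB switches on to limit itself, rose 2.53-fold (7.24 ± 0.64 after LPS, n = 26, against 5.93 ± 0.52 after NaCl, n = 25; limma adjusted p = 1.9e-06). Bcl3, a nuclear partner of NF-kB, rose 1.63-fold, the NF-kB subunit gene Nfkb2 1.52-fold and Myd88, the adaptor of Toll-like and interleukin 1 receptors, 1.33-fold. The cytokine genes themselves did not pass: Il1b differed by 0.41 (SE 0.15, limma adjusted p = 0.56) and Tnf by 0.25 (SE 0.11, limma adjusted p = 0.89). The LPS receptor gene Tlr4 differed by -0.11 (SE 0.09) and did not pass.

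The other adhesion and junction genes of endothelium did not move as a block. Of 18 listed genes 16 were measured, 1 rose and 2 fell, with a median of -0.01. Esam, an endothelial adhesion molecule of tight junctions, rose 1.40-fold (5.40 ± 0.35 against 4.92 ± 0.46; limma adjusted p = 0.027). Cldn5, the main claudin of the blood-brain barrier, fell by 0.92 on the log2 scale (5.77 ± 0.90 against 6.70 ± 0.48; limma adjusted p = 0.011), and the tight junction gene Ocln fell by 0.58 (4.28 ± 0.61 against 4.85 ± 0.37; limma adjusted p = 0.030). Icam2, the constitutive relative of Icam1, differed by -0.35 (SE 0.10) and did not pass (limma adjusted p = 0.20), and Madcam1 and Icam5 differed by 0.14 and 0.04. Without the 8 arrays Cldn5 differed by -1.40, Ocln by -0.80 and Esam by 0.60.

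Genes of the leukocyte side and of the anchoring machinery stayed below the threshold. Of 12 listed leukocyte partners 9 were measured and 0 passed in either direction in limma, with a median of 0.07. At an unadjusted p under 0.05 there were 0, against 4.9% of all clusters. Selplg, which encodes the P-selectin ligand PSGL-1, differed by 0.10 (SE 0.09), and the integrin subunits Itgb7 and Itgax by -0.17 (SE 0.12) and 0.09 (SE 0.10). The granule partners of P-selectin had 5 of 5 measured and 0 passing (0 unadjusted), with Angpt2 at -0.12 (SE 0.09) and Cd63, a granule membrane protein, at 0.05 (SE 0.06). Of the cytoplasmic anchors and sheddases 5 of 7 were measured and 0 passed (2 unadjusted), with the anchor Ezr at -0.25 (SE 0.08), Msn at 0.21 (SE 0.09) and the sheddase Adam17 at -0.10 (SE 0.06). Of the enzymes that build selectin ligands 9 of 10 were measured and 0 passed (2 unadjusted), with B4galt1 at 0.24 (SE 0.09) and Fut4 at -0.24 (SE 0.09). In each of these 4 lists the median lay between -0.004 and 0.07.

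**Figure D4:**
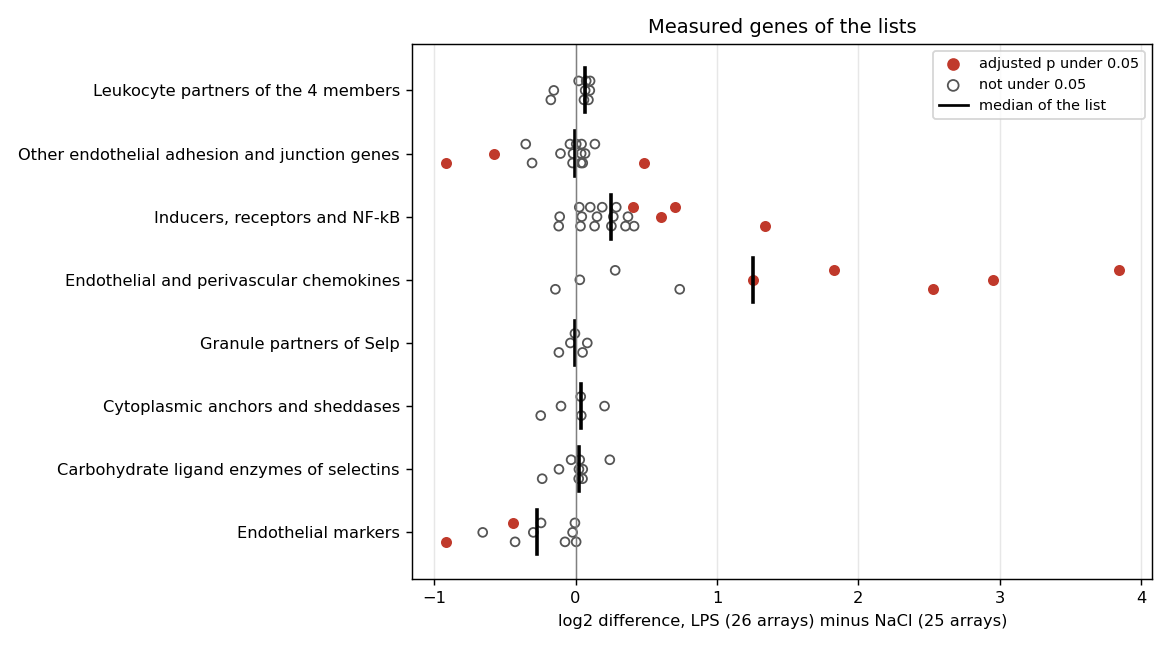
Difference between LPS (26 arrays) and NaCl (25 arrays) in log2 intensity (horizontal axis) of every measured gene of 7 lists around the members and of the endothelial marker list, 1 point per gene; red points passed the limma test at an adjusted p under 0.05 and black bars are list medians. The chemokine median is 1.25 and that of the endothelial markers -0.27.

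The endothelial markers that passed the test moved in the opposite direction to the members. Of 12 listed markers 10 were measured, 2 fell and 0 rose (6 with an unadjusted p under 0.05, against 4.9% of all clusters). The median difference was -0.27 (-0.32 without the 8 arrays). Cldn5 fell as above and Tek, the angiopoietin receptor, fell by 0.44 (5.37 ± 0.46 against 5.81 ± 0.31; limma adjusted p = 0.039). The blood-brain barrier transporter genes Slco1a4 and Abcb1a differed by -0.66 (SE 0.16, limma adjusted p = 0.051) and -0.43 (SE 0.11, limma adjusted p = 0.099), Tie1 by -0.30 and Egfl7 by -0.24, and none of the 4 passed. The defining markers Vwf, Cdh5 and Erg differed by -0.004, -0.02 and 0.005 and did not pass either. The list mean ranged from -0.96 to 0.43 (median -0.19) in LPS arrays and from -0.13 to 0.48 (median 0.16) in NaCl arrays. The part of these markers in the members' values was not tested. Markers of platelets, the other carriers of P-selectin, had 3 of 5 measured and 0 passing in limma (0 unadjusted), with list means from -0.52 to 0.74 in LPS arrays and from -0.47 to 0.41 in NaCl arrays. Markers of blood neutrophils and monocytes had 7 of 8 measured and 0 passing (2 unadjusted). Their list means ran from -0.25 to 1.17 in LPS arrays and from -0.36 to 0.93 in NaCl arrays. The highest were those of arrays 49 and 50 of INDOM-I (1.17 and 0.97) and array 53 of INDOM-III (0.93). Microglial markers had 6 of 7 measured and 0 passing (0 unadjusted), with a median of 0.07. Their part in the result was not tested.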

How the data were processed

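RNA of 56 rats was hybridized to Affymetrix Rat Gene 2.1 ST arrays. The authors deposited 1 linear intensity per transcript cluster and array, made per the labels with RMA in Affymetrix Expression Console (version not stated). The methods describe RMA background correction, quantile normalization and median polish, and these compress differences of dim clusters. The log2 of each intensity was taken and nothing was filtered. Symbols came from the array annotation.

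Groups came from the labels. Linear models with moderated variances were fitted with limma 3.58.1 under R 4.3.3, with Benjamini-Hochberg adjustment over all 36685 clusters and a threshold of 0.05. LPS and NaCl were compared over 51 arrays with 6 pretreatments as additive terms. Other contrasts were fitted over the 21 SHAM, VAGX and CNT arrays or the 35 others, and CNT against NaCl-challenged rats over all 56. The F test took 51 arrays. Likeness was the correlation of residuals from group means, with 100000 permutations within groups, two-sided. The fits were tested on simulated data. Alternatives were plain analysis of variance, a variance trend, bright clusters only, a second quantile normalization, array sets, array weights, other sets of arrays in the fit and each array or pretreatment left out. The array sets taken alone, and the fits and correlations without the 8 arrays, were added after seeing the data.

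The members and lists were chosen with earlier results of these data known. Named genes were the members, the 5 genes most like each, and up to 4 genes per list with the smallest adjusted p. Tnf, Il1b, Tlr4, Madcam1, Icam5, Vwf, Cdh5, Erg, Tie1, Egfl7 and Ccl2 were added after their values were seen. Python 3.11.15 and matplotlib 3.10.9 drew the figures.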

Additional observations from a re-analysis of the deposited data

Results flagged for a closer look

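Within groups of 4 or 5 rats, 5 values stood far from the rest by Dixon's criterion, all of them high and all from 2 arrays. Array 4 of CNT had a log2 intensity of 8.04 for Vcam1, 6.19 for Icam1 and 5.23 for Selp, with its distance to the next CNT array taking up 0.74, 0.78 and 0.81 of the group's range. Array 36 of SC560-III had 8.12 for Vcam1 and 5.59 for Selp, with 0.74 and 0.91 of the range. The criterion was 0.71 for groups of 5, chance flags about 1 in 20 groups, and 30 sets of values (3 genes in each tested group) were examined. Both arrays also had chemokine means above 0 (1.50 and 2.20). The 5 values come from 2 rats and are not independent of each other.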

How the results depend on the processing

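Pooled over pretreatments, the LPS difference of each measured member kept its direction and stayed past the adjusted threshold in limma under every setting tested but 1. Selp was too dim for the fit of bright clusters only, and in arrays 1 to 40 alone its limma adjusted p was 0.0498. With each array left out in turn the LPS difference ranged from 0.99 to 1.08 for Vcam1, 0.92 to 1.02 for Icam1 and 1.13 to 1.29 for Selp. The exception, added after the data were seen, was arrays 41 to 56 alone (0.79, 0.89 and 1.01), which hold fewer arrays and VAGX in array 46 alone, and where 0 clusters passed in limma (1480 at an unadjusted p under 0.05) against 145 in the whole comparison. That count became 96 without the NaCl pretreatment, 95 without SC560 and 56 in arrays 1 to 40 alone. In CEL, Vcam1 (1.34) and Icam1 (1.56) passed in limma when the 2 groups were fitted alone, a fit in which 9 of 36685 clusters passed. The members were chosen for their LPS response, so nothing is read from that count. In SC560, leaving out array 36 raised Vcam1 to 1.25 and Selp to 1.77 (leave-one-out ranges 0.79 to 1.25 and 0.97 to 1.77). Array 36 is a NaCl array set apart by its high chemokines, so leaving it out favours such a rise. No test is read from these values. With the array set as a term 3 differences near 0 changed sign: Vcam1 in CEL-III against NaCl-III (-0.033), Icam1 in SC560-I against NaCl-I (0.080) and Vcam1 in INDOM-III against NaCl-III (0.088). Leaving out single arrays turned the sign of other uncalled differences. The LPS effect of VAGX minus SHAM ranged from -0.61 to 0.14 for Selp. VAGX against SHAM under LPS ranged from -0.080 to 0.48 for Vcam1 and -0.43 to 0.33 for Selp. CEL against NaCl under NaCl ranged from -0.14 to 0.24 for Vcam1. The LPS effect of SC560 minus NaCl ranged from -0.44 to 0.10 for Icam1 and -0.41 to 0.093 for Vcam1. SC560 against NaCl under NaCl ranged from -0.15 to 0.40 for Icam1 and -0.44 to 0.30 for Selp. SC560 against NaCl under LPS ranged from -0.29 to 0.16 for Icam1. The LPS effect of INDOM minus NaCl ranged from -0.28 to 0.55 for Selp and -0.36 to 0.36 for Icam1. INDOM against NaCl under NaCl ranged from -0.30 to 0.069 for Vcam1 and -0.52 to 0.026 for Icam1. INDOM against NaCl under LPS ranged from -0.60 to 0.12 for Icam1 and -0.70 to 0.13 for Selp. NaCl-challenged against CNT rats ranged from -0.43 to 0.075 for Vcam1, -0.33 to 0.047 for Icam1 and -0.55 to 0.11 for Selp. With the array set as a term, VAGX against SHAM under NaCl moved from 0.19 to 0.71 for Selp and from -0.50 to -0.22 for Icam1. For Vcam1 and Icam1 over the 25 NaCl arrays, r was 0.40 and turned to -0.14 without its 2 farthest arrays. The causes were not tested. The mean over all clusters of a gene could not give another value, as each member has 1 cluster. No paired analysis was possible because the array numbers are unique and pair no rats.

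Few rats per group limit the precision, as no depth exists for arrays. Selp was dim, where differences are compressed. Sele had no cluster. The array sets and the pretreatments are partly confounded. Both INDOM groups lie in arrays 41 to 56, with only 1 array each of NaCl-I and NaCl-III. INDOM levels against NaCl pretreatment are therefore poorly separated from the set. With the set as a term, Vcam1 in INDOM-I against NaCl-I was -0.60 (SE 0.40). The LPS difference within INDOM does not cross the sets.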
